A study of Sus scrofa with 9 samples.

Results

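The transcription factors described here are RUNX1, RUNX2, RUNX3, SP6, SP7, KLF4, NFIC, SATB1 and FOXO1, 9 genes known for the differentiation of hard tissue cells. They were chosen by name from a table of 34580 genes and transcripts, and every value of each was followed over all 9 libraries. RUNX1, RUNX2, SP6, KLF4, NFIC, SATB1 and FOXO1 were listed under their symbols, which made 7 of the 9. SP7 and RUNX3 were listed only under the RefSeq gene IDs LOC404701 and LOC100622884, and RUNX2 had a second entry under its own gene ID, LOC100737965, so that 10 entries are described.

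The study followed the third deciduous molar of the lower jaw (Dm3) of miniature pigs, with the aim of describing the RNAs of the extracellular matrix as the crown takes shape. Whole tooth germs were taken at embryonic day 40 (E40, the cap stage), day 50 (E50, when the early bell forms) and day 60 (E60, the late bell), without any treatment contrast. Each of the stages had 3 libraries. A germ holds enamel organ, dental papilla and dental sac together, and the libraries were made from total RNA depleted of ribosomal RNA. The labels do not say whether the 3 libraries of a stage came from separate fetuses or litters, and the methods of the study call them biological replicates without saying more, so p-values measure only the spread between these libraries.

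The enamel organ is an epithelium whose inner cells become ameloblasts, the cells that secrete enamel. The mesenchyme of the papilla gives rise to odontoblasts, which secrete dentin, and the surrounding sac and jaw mesenchyme yields cementum, ligament and bone. RUNX proteins bind DNA together with the cofactor CBFB and recruit TLE corepressors, SP and KLF proteins are zinc finger factors that bind GC-rich promoters, and SATB1 is a chromatin organizer.

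Expression was given as FPKM, mapped fragments relative to exon length and library size, so that levels can be compared between genes per length. Whole reads were recovered from the FPKM steps, and by these the libraries fell into 2 sets. The E50 libraries and E60 library 1 were deep, with 13361726 to 16063566 reads, and the E40 libraries and E60 libraries 2 and 3 were shallow, with 681667 to 1204263 reads. The Pearson r of log2 values over genes was 0.959 to 0.983 within the deep set, 0.743 to 0.838 within the shallow set and 0.301 to 0.609 between them. All E40 libraries were shallow and all E50 libraries deep, so that between these stages the effects of stage and of library set cannot be told apart. The same holds from E50 to E60 once E60 library 1 is left out, since the other E60 libraries were shallow. E60 library 1, although it lay with the E50 libraries, carried the late products: AMBN, ameloblastin, was at 10410 FPKM there, at 2181 and 5371 FPKM in the shallow E60 libraries, and at 2.95 to 4.61 FPKM at E50. Each comparison is therefore given over all 9 libraries, without E60 library 1, and within each set. The markers of dental epithelium (EPCAM, KRT14, TP63) and dental mesenchyme (MSX1, PAX9, LHX8) were above 0 in every library, whereas the epithelial cadherin CDH1 was listed at 0 in all 9.

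Over all 9 libraries, 3 of the 7 genes listed by symbol passed the limits from E40 to E50: SP6 and SATB1 rose and RUNX2 fell. To pass, a gene needed a limma p below 0.05 after Benjamini-Hochberg adjustment and a difference of 1 or more in log2(FPKM + 0.1), where the added 0.1 makes changes of low genes look smaller. Of the 19618 genes tested, 38.6% passed in this comparison (16.8% higher and 21.8% lower), so 3 of 7 was near the background. From E50 to E60 none of the 7 passed, against 0.0714% of all genes (0.051% higher and 0.0204% lower), and from E40 to E60 SP6 and SATB1 passed, against 1.8% (0.663% higher and 1.14% lower). The median log2 fold changes of the 7 were 1.18, 0.48 and 1.25 in these comparisons, beside 0.55, -0.64 and -0.22 over all genes. Without E60 library 1, 4, 2 and 2 of the 7 passed, against 54.6%, 59.1% and 6.06% of all genes. After median-ratio scaling the same 3 genes passed from E40 to E50, against 37.1% of all genes, and the same 2 from E40 to E60, against 3.67%. All 10 entries passed the filter on low values. The calls from E40 to E50 were close to the limit: all 3 were lost without E40 library 1, E50 library 2 or E50 library 3, with adjusted p between 0.0501 and 0.0541 (limma, Benjamini-Hochberg). From E40 to E60, SP6 was lost on leaving out any library but E60 libraries 1 and 2 (adjusted p from 0.0894 to 0.162), and SATB1 on leaving out E40 library 1 or 2 or any E50 library (adjusted p from 0.0532 to 0.0697), whereas RUNX2 passed without E60 library 2 (-2.31, adjusted p = 0.034).

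**Figure D1:**
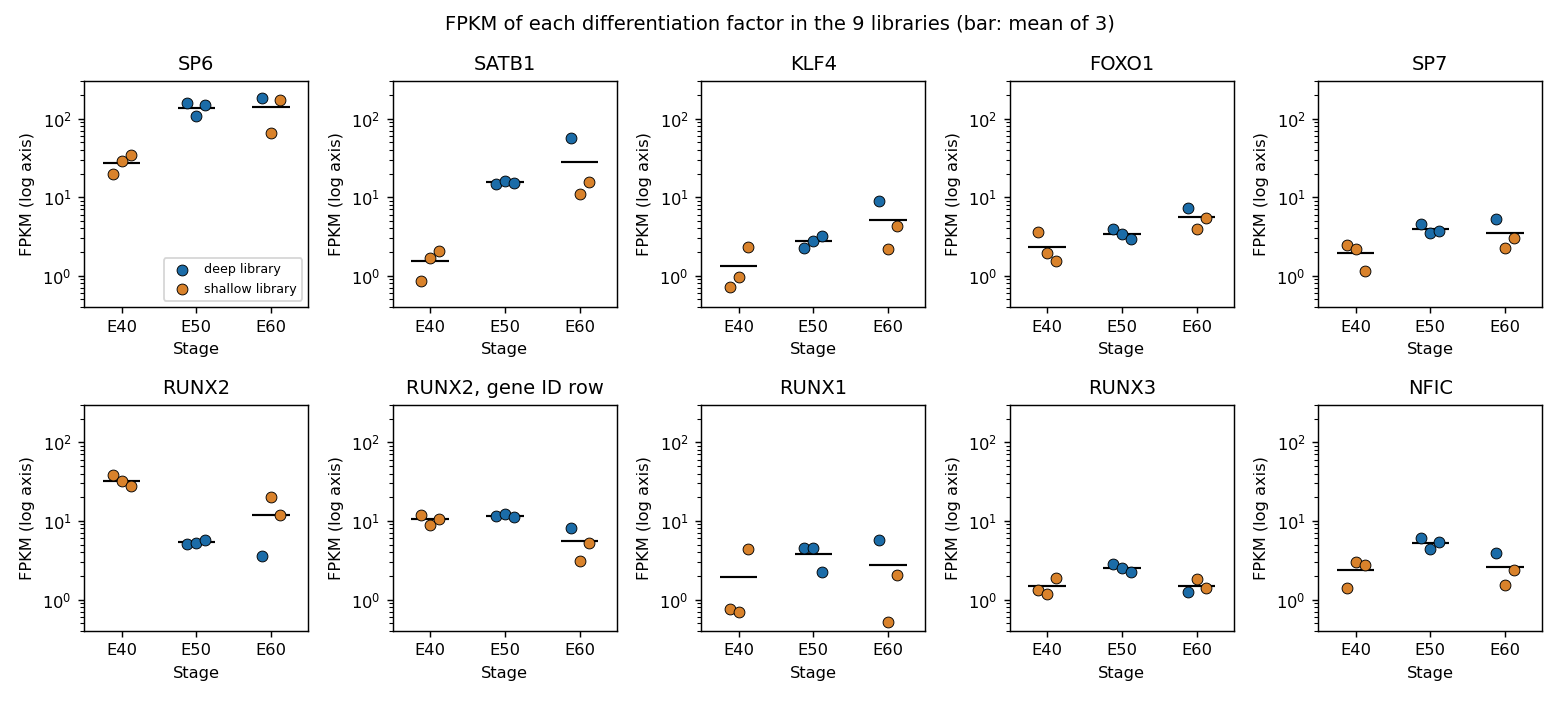
FPKM on a log axis against stage for each of the 10 entries, with a point per library (blue, deep set; orange, shallow set) and a bar at the mean of 3. SP6 and SATB1 were higher in every E50 and E60 library than in any E40 library, RUNX2 was lower, and the row of the RUNX2 gene ID lay between 3.12 and 12.1 FPKM throughout.

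SP6, or epiprofin, is a zinc finger factor of the dental epithelium without which enamel does not form. It had 19.7, 28.5 and 34.0 FPKM in E40 libraries 1, 2 and 3, 158, 108 and 148 FPKM at E50, and 183, 65.8 and 171 FPKM at E60. Every E50 and every E60 library was above every E40 library, and the E50 and E60 libraries overlapped. The mean went from 27.4 ± 7.18 FPKM (SD, n = 3) at E40 to 138 ± 26.6 FPKM (SD, n = 3) at E50, which is 5.04 times as high. The log2 fold change was 2.35 ± 0.45 (SE) from E40 to E50, with an adjusted p of 0.0124 (limma, Benjamini-Hochberg). It was 2.25 from E40 to E60, with an adjusted p of 0.0449 by the same test, and 1.99 (adjusted p = 0.0345) without E60 library 1. From E50 to E60 it was -0.10 (adjusted p = 0.872), and scaling the libraries by their median ratio turned it to 0.68, so that no direction can be given for this step. In bulk germs, more cells that express SP6 and more SP6 RNA per cell cannot be told apart, and the same holds for each gene that follows.

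SATB1, which folds chromatin and is known from lymphocytes and from ameloblasts, had the largest log2 fold change of the 10 entries from E40 to E50 and from E40 to E60. It was at 0.853, 1.67 and 2.06 FPKM in the E40 libraries, on 5, 11 and 17 reads. It was at 14.8, 16.1 and 15.2 FPKM at E50 and at 56.6, 11.1 and 15.6 FPKM at E60. No E40 library reached any later one, and E60 library 1 stood far above the other two E60 libraries. The log2 fold change was 3.33 ± 0.61 (SE) from E40 to E50 (limma, adjusted p = 0.0124) and 3.81 from E40 to E60 (adjusted p = 0.0171), or 3.11 (adjusted p = 0.00435) without E60 library 1. Between E50 and E60 it was 0.48 with E60 library 1 and -0.22 without it, and neither passed the limits. The 8 leukocyte markers summed to 3.76 to 4.64 FPKM at E40, 2.51 to 3.82 FPKM at E50 and 3.08 to 4.55 FPKM at E60. Of these, the lymphocyte kinase LCK had a mean of 0.1199 FPKM at E40 and 0.721 FPKM at E50, and PTPRC 0.0942 and 0.399 FPKM. CD3D and CD3E were listed at 0 in all E40 libraries and had means of 0.026 and 0.09 FPKM at E50. The others were lower at E50: CD79A (1.28 and 0.546 FPKM), CD14 (0.991 and 0.366 FPKM), ITGAM (0.969 and 0.591 FPKM) and CSF1R (0.672 and 0.261 FPKM). Only 3 of the 8 passed the filter on low values, and 0 of these passed the limits from E40 to E50. These levels are low, and E40 and E50 differ in library set, so no direction can be given for leukocytes. The part of lymphocytes in the level of SATB1 was not tested.

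KLF4, a zinc finger factor of epithelial barriers and of odontoblasts, was at 0.723, 0.968 and 2.31 FPKM at E40, on 2, 3 and 9 reads. It was at 2.27, 2.79 and 3.16 FPKM at E50 and at 9.004, 2.21 and 4.24 FPKM at E60. E40 library 3 overlapped the E50 libraries, and E60 library 1 was the highest of the 9. The log2 fold changes were 1.13 from E40 to E50 (adjusted p = 0.174), 0.68 from E50 to E60 (adjusted p = 0.422) and 1.81 from E40 to E60 (adjusted p = 0.214, limma), and none passed the limits. In a test of recovered reads that was later withdrawn, KLF4 did pass from E50 to E60 and from E40 to E60. The share of all genes passing in that test is not given here, and no result rests on it.

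FOXO1, the forkhead factor held out of the nucleus by insulin signaling and known to act on enamel maturation genes, was at 3.60, 1.93 and 1.53 FPKM at E40, 3.92, 3.44 and 2.91 FPKM at E50, and 7.33, 3.91 and 5.37 FPKM at E60. E60 libraries lay above every E40 library, but the lowest of them met the highest of E50. In the shallow libraries these values rested on 3 to 14 reads. The log2 fold change was 1.25 from E40 to E60 (adjusted p = 0.239) and 0.60 and 0.64 for the successive steps, and none passed the limits in limma. With E60 library 1 standing alone for E60, the E40 to E60 values of KLF4 (2.83, adjusted p = 0.00761) and FOXO1 (1.69, adjusted p = 0.0264) passed in limma, as did 52.2% of all genes. This comparison crosses the library sets, and its spread comes from the other stages, on the assumption that the lone E60 library varies as they do.

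SP7, or osterix, acts downstream of RUNX2 in bone and odontoblast precursors. It was at 2.46, 2.20 and 1.16 FPKM at E40, 4.62, 3.50 and 3.75 FPKM at E50, and 5.29, 2.23 and 3.06 FPKM at E60. All E50 libraries were above all E40 libraries, but the E40 values rested on 3, 3 and 2 reads, at or under a floor of 3 reads, which covers counting error only. Its difference between E50 and E40 was 1.05 on the log2 scale (limma, adjusted p = 0.121), and passed the limits at 1.05 (adjusted p = 0.0355) without E60 library 1. So did 54.6% of all genes in that fit. Between E60 and E50 it was -0.24, and median-ratio scaling turned it to 0.51.

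RUNX2, the factor required for osteoblasts and for the tooth germ to pass the cap stage, was listed under its symbol at 38.0, 31.9 and 27.9 FPKM at E40, 5.06, 5.29 and 5.67 FPKM at E50, and 3.55, 20.3 and 11.7 FPKM at E60. The E40 libraries were above all others, and within E60 the shallow libraries 2 and 3 were above the deep library 1. The log2 fold change was -2.58 ± 0.57 (SE) from E40 to E50 (limma, adjusted p = 0.0133), and the E40 mean was 6.10 times the E50 mean. Between E50 and E60 it was 0.82 (adjusted p = 0.288) over all 9 libraries, 1.51 (adjusted p = 0.00225) without E60 library 1, and -0.58 with E60 library 1 standing alone for E60. The direction of that step thus depended on which E60 libraries were used. Without E60 library 1 it also crosses from the deep to the shallow set, and 59.1% of all genes passed in it.

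The entry under the RUNX2 gene ID followed another course. It was at 11.8, 8.78 and 10.7 FPKM at E40, 11.5, 12.1 and 11.3 FPKM at E50, and 8.20, 3.12 and 5.24 FPKM at E60. E40 and E50 overlapped, and every E60 library was below both. Its log2 fold change was 0.16 from E40 to E50 (limma, adjusted p = 0.751), -1.16 from E50 to E60 (adjusted p = 0.164) and -1.0 from E40 to E60 (adjusted p = 0.255). Without E60 library 1 the last 2 were -1.50 (adjusted p = 0.00243) and -1.33 (adjusted p = 0.0354), and both passed the limits. So did 59.1% and 6.06% of all genes, whose medians were -0.94 and -0.47. After median-ratio scaling of the same 8 libraries the gene ID entry passed in neither comparison.

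The split of RUNX2 reads over its 2 entries went with the library set. The symbol row took 86.6%, 87.9% and 83.9% of the reads of both rows in the E40 libraries and 92.9% and 81.7% in E60 libraries 2 and 3. It took 46.8%, 46.7% and 50.2% in the E50 libraries and 46.4% in E60 library 1. The lowest exact 95% bound among the shallow libraries was 71.6%, for E60 library 3, and the highest among the deep ones 54.5%, for E50 library 3, and these bounds cover counting error only. The symbol row was 2.0 times as long as the second, from the reads that 1 FPKM was worth. When the reads of both rows were taken over their summed length, RUNX2 had 25.2 ± 3.67 FPKM at E40, 7.43 ± 0.194 FPKM at E50 and 9.74 ± 4.73 FPKM at E60 (SD, n = 3), with 5.10, 14.6 and 9.56 FPKM in E60 libraries 1, 2 and 3. Of 530 genes with both kinds of entry, 222 had both tested. The symbol row was relatively higher in every shallow library for 44 of these (19.8%) and relatively lower for 44 (19.8%), and 10 had a difference at least as large as the 2.87 on the log2 scale of RUNX2. The part of the library set in the E40 to E50 fall of RUNX2 cannot be told apart from that of the stage.

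**Figure D2:**
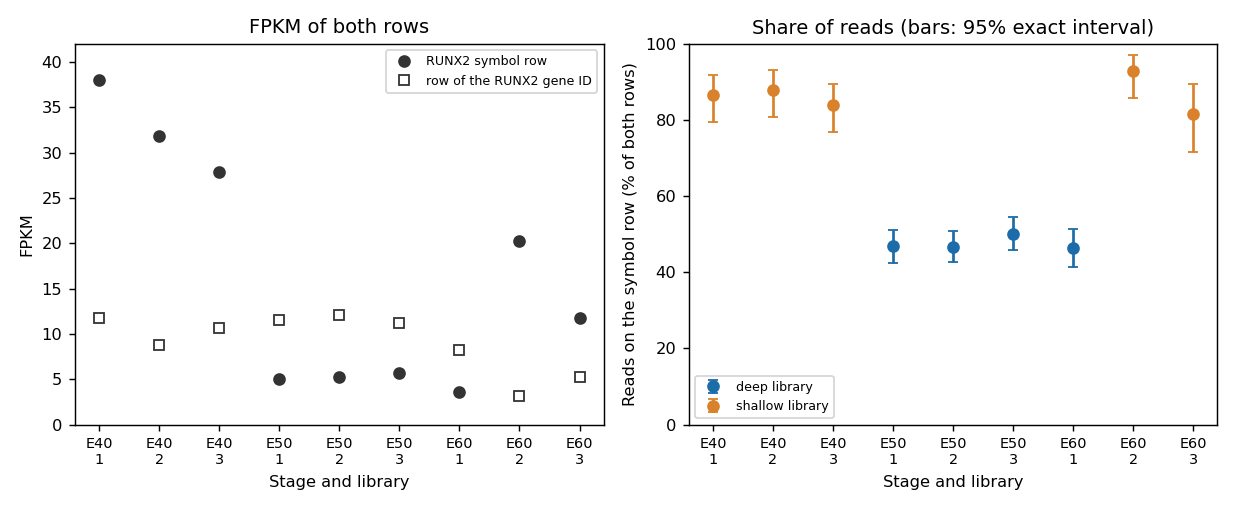
FPKM of both RUNX2 entries (left) and the percentage of their reads on the symbol row with exact 95% intervals (right), for each library of E40, E50 and E60. The share was 81.7% to 92.9% in the 5 shallow libraries and 46.4% to 50.2% in the 4 deep libraries, E60 library 1 included.

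RUNX1, a factor of blood stem cells and of dental epithelium, was at 0.768, 0.685 and 4.36 FPKM at E40, 4.47, 4.49 and 2.26 FPKM at E50, and 5.76, 0.522 and 2.05 FPKM at E60. Stages overlapped in all comparisons, and in shallow libraries 1 to 8 reads stood behind a value. RUNX3, known from sensory neurons and lymphocytes, was at 1.33, 1.18 and 1.88 FPKM at E40, 2.80, 2.54 and 2.25 FPKM at E50, and 1.23, 1.80 and 1.41 FPKM at E60. E50 lay above both other stages, but no shallow library held more than 2 reads of RUNX3. A change of either gene was not detectable at the depth of the shallow libraries: the log2 fold changes from E40 to E50 were 1.34 (adjusted p = 0.26) for RUNX1 and 0.77 (adjusted p = 0.208) for RUNX3 in limma.

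NFIC, a nuclear factor I protein needed by odontoblasts for root dentin, was at 1.39, 2.97 and 2.75 FPKM at E40, 6.12, 4.38 and 5.36 FPKM at E50, and 3.87, 1.51 and 2.37 FPKM at E60. E50 lay above both other stages without overlap. For NFIC the log2 fold change was 1.18 from E40 to E50 (limma, adjusted p = 0.0926) and -1.09 from E50 to E60 (adjusted p = 0.171), neither past the limits. Without E60 library 1 both passed, at 1.18 (adjusted p = 0.0251) and -1.42 (adjusted p = 0.0182). Both steps then cross the library sets, and 54.6% and 59.1% of all genes passed in them. The medians of all genes were 0.55 and -0.64 in these steps over 9 libraries, and -0.09 and 0.08 after median-ratio scaling, under which NFIC had 0.54 and -0.34.

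**Figure D3:**
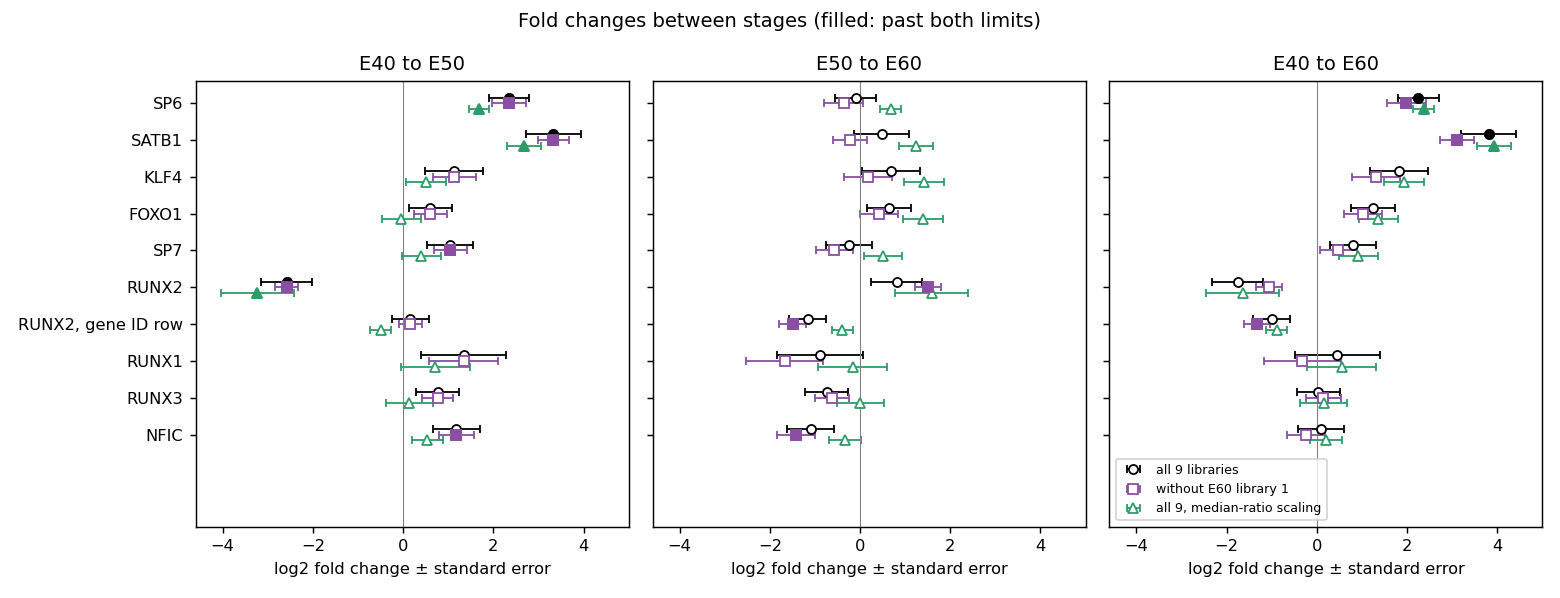
Log2 fold change with its standard error (horizontal axis) of each entry for the 3 pairs of stages, over all 9 libraries (circles), without E60 library 1 (squares) and over all 9 after median-ratio scaling (triangles). Filled points passed the limits, and only SP6, SATB1 and RUNX2 did so in all 3 fits from E40 to E50, only SP6 and SATB1 from E40 to E60.

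Counted by overlap, 3 of the 7 genes listed by symbol had every E50 library above every E40 library (SP6, SATB1 and NFIC) and 1 had every E50 library below (RUNX2). Of all genes tested, 45.2% lay above in this way and 27.8% below. From E50 to E60 none of the 7 was higher and 1, NFIC, was lower, against 5.18% and 21.6%. From E40 to E60, SP6, SATB1 and FOXO1 were higher without overlap, against 3.89% of all genes, and RUNX2 was lower, against 19.0%.

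Comparisons within a library set keep the stage apart from the set, at the price of few libraries, and they were made without a test. In the shallow set, E60 libraries 2 and 3 differed from the E40 libraries on the log2 scale by 3.11 for SATB1, 1.99 for SP6, 1.30 for KLF4 and 1.02 for FOXO1, against a median of -0.47 over all genes. In the deep set, E60 library 1 differed from the E50 libraries by 1.87 for SATB1, 0.43 for SP6, 1.69 for KLF4 and 1.08 for FOXO1, against a median of -0.07. SP6, SATB1 and FOXO1 were higher at E60 without overlap in both sets, as were 3.29% of all genes. KLF4 and SP7 overlapped in the shallow set. After median-ratio scaling both joined the other three, and 8.88% of all genes were higher in this way. In the shallow set SP7 rested on 3, 3 and 2 reads at E40 and on 4 and 7 at E60. KLF4 rested on 2, 3 and 9 reads at E40.

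RUNX2 was lower at E60 in both sets, by -1.06 in the shallow and -0.58 in the deep set, and so was the entry under its gene ID, by -1.33 and -0.50. Of all genes, 12.4% were lower in both sets without overlap. With median-ratio scaling only the gene ID entry stayed below in both, and the share of all genes was 6.16%. NFIC differed by -0.24 in the shallow set, with overlap, and by -0.43 in the deep set. In the deep set, RUNX3 differed by -0.97, with E60 library 1 (16 reads) below all E50 libraries (26 to 34 reads), and RUNX1 by 0.675, with E60 library 1 above all of them. RUNX1 differed by -0.33 in the shallow set, with overlap. RUNX3 was at 2 reads or fewer in all shallow libraries, and no difference is given there.

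**Figure D4:**
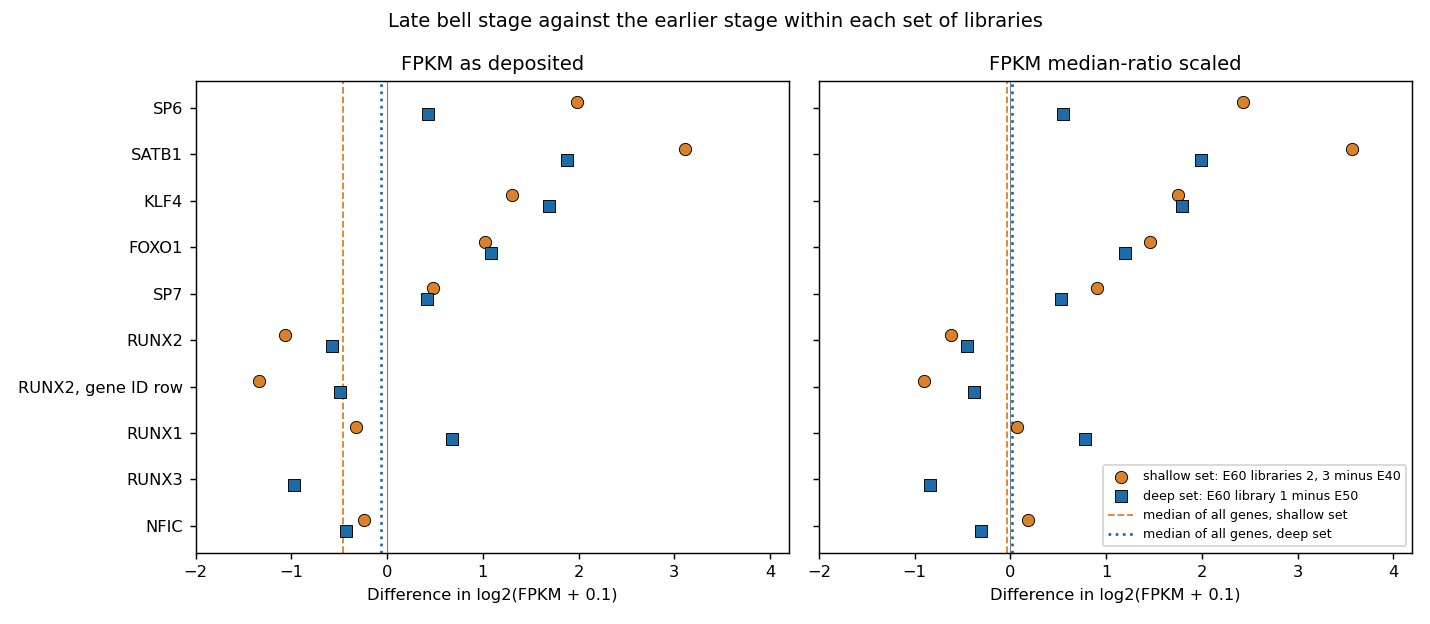
Difference in log2(FPKM + 0.1) between E60 and the earlier stage of the same library set, for the shallow set (circles, E60 libraries 2 and 3 minus E40) and the deep set (squares, E60 library 1 minus E50), as deposited and after median-ratio scaling. SATB1, KLF4, FOXO1, SP6 and SP7 lie to the right of 0 in both sets, RUNX2 and its gene ID entry to the left, RUNX3 is drawn for the deep set only, and vertical lines mark the medians of all genes.

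Other cell types moved between the libraries. The 7 dental mesenchyme markers summed to 1062 to 1582 FPKM at E40, 2811 to 3212 FPKM in E50 germs, and 2213, 649.6 and 1404 FPKM in libraries 1, 2 and 3 of E60. The 5 dental epithelium markers used summed to 3268 to 4702 FPKM at E40, 2165 to 3071 FPKM at E50 and 3002, 1212 and 3731 FPKM at E60. Osteoclast markers, led by CTSK, went from 6.52 to 11.01 FPKM at E40 to 50.7 to 60.7 FPKM at E50 and were at 69.9, 12.1 and 24.7 FPKM at E60. Skeletal muscle markers were at 49.0 to 67.7 FPKM at E40, 7.77 to 10.3 FPKM at E50 and 2.38 to 6.82 FPKM at E60, and the muscle creatine kinase CKM was listed at 0 throughout. The RUNX2 symbol row was likewise highest at E40, whereas its gene ID entry had means of 10.4 FPKM at E40 and 11.6 FPKM at E50. The part of surrounding tissue in the level of RUNX2 was not tested. Cartilage markers summed to 8.95 to 14.1, 14.6 to 18.8 and 6.09 to 18.6 FPKM at the 3 stages, endothelial markers to 19.0 to 21.7, 52.2 to 56.3 and 16.6 to 63.2 FPKM, and erythroid markers to 228 to 395, 729 to 1028 and 97.1 to 675 FPKM.

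The levels of some factors were also set against markers of their tissue in the same library, a choice made after seeing the data. The share of all genes without overlap between stages was not counted on this scale. From E40 to E50, which crosses the library sets, the epithelial markers had a median log2 fold change of -0.16, beside 0.55 over all genes. Against the mean of 4 epithelial markers (EPCAM, KRT5, KRT14 and TP63), SP6 stood at -2.74, -2.604 and -2.58 on the log2 scale at E40, at -0.26, -0.65 and -0.501 at E50, and at -0.46, -0.27 and -0.11 at E60. The E60 libraries, which spread from 65.8 to 183 FPKM, lay close together on this scale, and all lay above E40. KLF4 stood at -7.35 to -6.40 at E40, -6.33 to -5.88 at E50 and -5.41 to -4.79 at E60, without overlap between any 2 stages. At E40, KLF4 rested on 2, 3 and 9 reads. Against the mesenchymal markers listed next it stood at -5.62 to -4.68, -5.28 to -4.66 and -3.08 to -2.29, and E40 and E50 overlapped. SATB1 stood at -7.11 to -6.56, -3.775 to -3.39 and -3.55 to -2.15, with overlap between E50 and E60 only. FOXO1 stood at -6.96 to -5.16, -6.12 to -5.56 and -5.08 to -4.304, with E60 above both other stages.

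Against 7 mesenchymal markers (VIM, MSX1, PAX9, LHX8, BARX1, TWIST1 and PRRX1), NFIC stood at -4.76 to -4.08 at E40, -4.16 to -3.89 at E50 and -3.89 to -3.48 at E60. No E60 library was below the E50 range on this scale, whereas against the epithelial markers NFIC stood at -5.26 to -4.93 at E50 and -6.23 to -5.62 at E60, lower without overlap. The RUNX2 symbol row stood at -1.14 to -0.08 at E40, -4.16 to -3.83 at E50 and -3.605 to 0.07 at E60, so that E50 lay below E40 without overlap. Its gene ID entry stood at -2.54 to -1.76, -2.99 to -2.72 and -2.78 to -2.42, and SP7 at -5.61 to -3.98, -4.48 to -4.29 and -3.54 to -3.04. SP7 was thus above all earlier libraries at E60 relative to these markers. The markers themselves had a median log2 fold change of -1.37 from E50 to E60, beside -0.64 over all genes. A gene that moved as the median gene therefore also rises against them. Against the epithelial markers its stages overlapped, at -7.33 to -5.69, -5.77 to -5.33 and -5.87 to -5.09. In the shallow libraries SP7 rested on 2 to 7 reads. These values assume that the markers hold a constant level per cell, which was not tested.

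**Figure D5:**
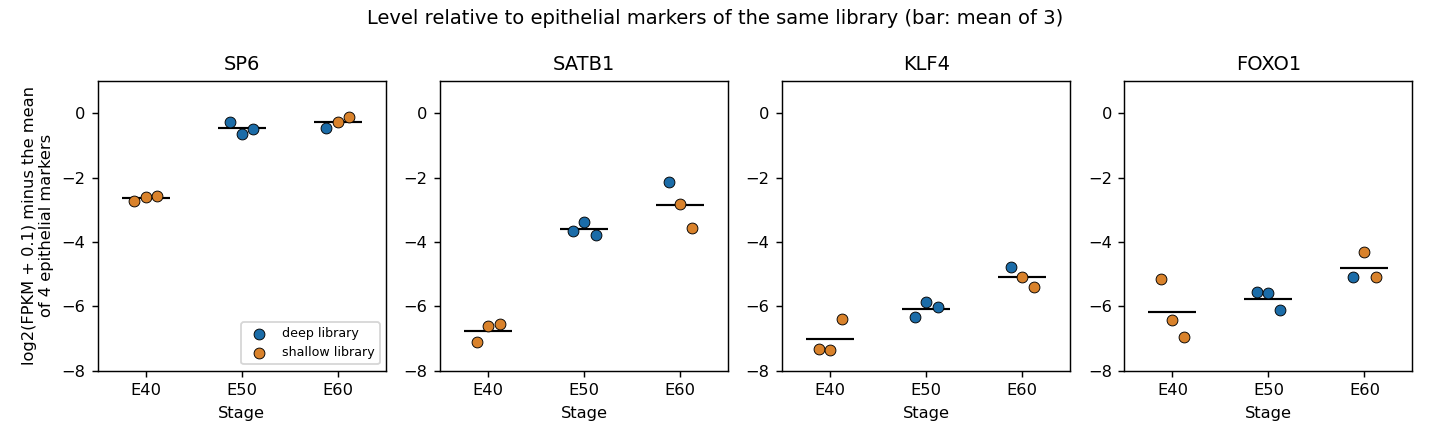
Level of SP6, SATB1, KLF4 and FOXO1 in each library as log2(FPKM + 0.1) minus the mean of 4 epithelial markers, by stage (blue, deep set; orange, shallow set; bar, mean of 3). The mean of KLF4 was -7.02 at E40, -6.07 at E50 and -5.1 at E60, and that of SP6 was -2.64, -0.47 and -0.28.

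By mean FPKM over the 9 libraries, the order of levels was SP6 (101.9), RUNX2 (16.6), SATB1 (14.9), the RUNX2 gene ID entry (9.19), FOXO1 (3.77), NFIC (3.41), SP7 (3.14), KLF4 (3.08), RUNX1 (2.82) and RUNX3 (1.83). The order changed with stage. RUNX2 and SP6 led at E40 with overlapping ranges, and SP6 alone led at E50 and E60, above SATB1 without overlap. At E50, SATB1 was above the RUNX2 gene ID entry and that above the RUNX2 symbol row, each without overlap. At E40, SP6 was above the RUNX2 gene ID entry and that above NFIC, again without overlap. The other neighbours in the order overlapped, 7 of 9 pairs at E40, 6 at E50 and 8 at E60.

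The genes whose pattern lay closest to the 4 most abundant factors listed by symbol were taken by Pearson r of log2(FPKM + 0.1) over the 9 libraries. These were GPRC5B (r = 0.990), EMP3 (0.988) and PRSS23 (0.982) for SP6, PHTF1 (0.994), NEXN (0.993) and AGBL3 (0.992) for RUNX2, TSPAN7 (0.994) and VWDE (0.989) for SATB1, and WFIKKN2 (0.905), AK5 (0.904) and SGMS2 (0.903) for FOXO1. The 2 library sets are shared by all genes, and these values are a description only.

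The partners and relatives of the factors were counted in the same way. Of 5 runt partners, TLE1, TLE2, TLE3 and TLE4 were found and 3 tested, and none passed over all 9 libraries. Their median log2 fold changes were 0.72, -1.37 and -0.67 from E40 to E50, E50 to E60 and E40 to E60. TLE1, a corepressor, was at 14.7 ± 2.37, 24.2 ± 3.81 and 9.53 ± 3.50 FPKM (SD, n = 3) at the 3 stages. Without E60 library 1 all 3 were lower at E60 than at E50, where 59.1% of all genes passed in either direction. Of 3 other NFI genes none passed, with medians of 0.76, -2.003 and -0.75, and NFIB was at 11.5 ± 1.48 FPKM (SD, n = 3) at E50 and at 10.1, 1.48 and 1.37 FPKM in libraries 1, 2 and 3 of E60. Without E60 library 1, 2 of the 3 (NFIA and NFIB) were lower at E60 than at E50, against the same 59.1% of all genes.

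Of 23 other SP and KLF genes, 19 were tested, 5 rose and 1 fell from E40 to E50 (median 1.30, beside 0.55 over all genes, of which 16.8% passed as higher and 21.8% as lower), and none passed in the other comparisons (medians -0.94 and 0.35). SP3, a ubiquitous member, rose from 26.7 ± 6.50 to 177 ± 31.1 FPKM (SD, n = 3; log2 fold change 2.73, limma adjusted p = 0.0261), and was at 157, 12.4 and 24.5 FPKM in E60 libraries 1, 2 and 3. SP4 rose from 3.95 ± 0.500 to 21.7 ± 4.04 FPKM (2.42, adjusted p = 0.0223), and was at 30.0, 4.04 and 6.43 FPKM at E60. For SP3, the shallow E60 libraries were thus below or within the E40 range, and for SP4 they were within it and above it. SP8, SP9 and KLF2 also rose, from at most 0.629, 2.12 and 1.51 FPKM at E40, with at least 1 E40 library listed at 0 for each, to 1.10 to 1.77, 6.88 to 13.0 and 4.38 to 5.09 FPKM. KLF17 fell from 4.19 ± 0.568 to 0.288 ± 0.0228 FPKM (SD, n = 3; adjusted p = 0.0124). Without E60 library 1, 10 of the 19 were higher and 2 lower at E50 than at E40, and 2 were higher and 7 lower at E60 than at E50, where 54.6% and 59.1% of all genes passed.

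Of the other FOXO genes, FOXO3, which also acts in stress responses, was at 7.21 ± 2.64, 13.3 ± 2.57 and 7.55 ± 4.37 FPKM (SD, n = 3) at the 3 stages, and FOXO4 at 3.87 ± 1.63, 5.36 ± 0.162 and 3.45 ± 1.73 FPKM (SD, n = 3). Both were tested and passed in no comparison over all 9 libraries, with medians of 0.73, -0.90 and -0.17.

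The products of ameloblasts and odontoblasts were counted last. Of 5 enamel genes tested (medians -0.29, 9.10 and 8.06), AMEL, AMBN and ENAM rose from E50 to E60, with AMEL going from 4.77 ± 0.850 FPKM to 6991, 990 and 2686 FPKM (log2 fold change 9.10, limma adjusted p = 0.000637). From E40 to E50, which crosses the library sets, AMTN rose (5.27, limma adjusted p = 0.0171) and ENAM fell (-2.68, adjusted p = 0.013). AMTN was at 0, 0 and 3.27 FPKM in E40 libraries 1, 2 and 3. Of 8 dentin and bone genes tested (medians 0.23, 1.02 and 1.90), DMP1 (4.79, adjusted p = 0.0373) and PHEX (5.94, adjusted p = 0.00678) rose from E50 to E60, and both and DSPP (8.32, adjusted p = 0.00677) from E40 to E60. COL1A2 rose from E40 to E50 (2.27, limma adjusted p = 0.0295), and was at 2276, 319 and 527 FPKM in E60 libraries 1, 2 and 3. Of all genes, 16.8% passed as higher and 21.8% as lower from E40 to E50. As higher, 0.051% passed from E50 to E60 and 0.663% from E40 to E60. All 3 E60 libraries held DSPP, dentin sialophosphoprotein, at 174 to 393 FPKM, against at most 2.62 FPKM at E40 and 1.42 FPKM at E50, so that the late stage showed in both library sets.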

How the data were processed

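Total RNA of Dm3 germs was depleted of ribosomal RNA and sequenced as directional libraries on a HiSeq instrument. The authors aligned the reads with TopHat (the submitters' processing notes name Sscrofa10.2) and deposited a table of FPKM for every gene and library. The counter, annotation and strand setting are not given in the sources used here. Of 34580 entries, 28963 were above 0 in at least 1 library, and whole reads were recovered for 28960 (tolerance 0.02 reads).

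A gene was tested if 2 or more libraries reached 1 FPKM. The test was limma 3.58.1 with a mean-variance trend (R 4.3.3) on log2(FPKM + 0.1), fitted to all 9 libraries with stage as the factor. It was also run on simulated data, drawn for all libraries from the same mean profile. Those data do not hold the difference in profile between the library sets, so they do not test the fit under it. Summaries and figures were made with Python 3.11.15, pandas 2.3.3, scipy 1.17.1 and matplotlib 3.10.9. The members and lists were chosen with earlier results of these data known, and the entries matched by RefSeq gene ID (assembly Sscrofa11.1, used for names only) were added after seeing the files. Named are all members, each pathway gene past the limits or otherwise at most 3 of a list, and up to 3 genes most like each of 4 members. A few genes that this rule or the marker lists name are not reported here and were left out of the lists and marker means. Alternatives were a pseudocount of 1, no filter, median-ratio scaling, a replicate block, fits of 2 stages and leaving out libraries.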

Additional observations from a re-analysis of the deposited data

How the results depend on the processing

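Directions that depended on the processing were those of changes that did not pass the limits over all 9 libraries. The cause was not tested. RUNX2 from E50 to E60 did pass as a rise without E60 library 1, at 1.51 as deposited and 2.58 after median-ratio scaling. It was negative with E60 library 1 standing alone for E60. With median-ratio scaling of all 9 libraries, the log2 fold change from E40 to E50 became -0.038 for FOXO1 and -0.49 for the RUNX2 gene ID entry, and from E50 to E60 it became 0.68 for SP6, 0.51 for SP7 and 0.007 for RUNX3. The same scaling of 8 libraries without E60 library 1, chosen after seeing the data, gave -0.02, -0.47, 0.72, 0.47 and 0.40 in that order. Without E60 libraries 2 and 3, RUNX1 had 0.675, RUNX2 -0.58, SP6 0.43 and SP7 0.42 from E50 to E60, and RUNX3 -0.20 from E40 to E60. When single libraries were left out, values from E50 to E60 ranged from -0.36 to 0.38 for SP6 (0.01 without E50 library 1, 0.38 without E60 library 2), from -0.571 to 0.035 for SP7 (the latter without E60 library 2) and from -0.22 (without E60 library 1) to 0.949 for SATB1. Values from E40 to E60 ranged from -0.33 (without E60 library 1) to 1.29 for RUNX1, from -0.24 (without E40 library 1 or E60 library 1) to 0.41 for NFIC and from -0.11 (without E60 library 2) to 0.21 for RUNX3, with -0.025 and -0.10 without E40 library 1 and E40 library 2.

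From E40 to E50, 7580 genes passed the limits (3296 higher), and with median-ratio scaling 7270 (2392 higher). From E50 to E60, 14 genes passed, and 27 with a pseudocount of 1, 81 with median-ratio scaling, 6 in a fit of the stages compared, 30 without E60 libraries 2 and 3 and 7448 with scaling of 8 libraries, where 2 members passed (RUNX2 and FOXO1). From E40 to E60, 354 genes passed, and 696, 720, 27, 9882 and 955 under the same alternatives in that order. Of the 7 members, 2 passed there, but 1 without a filter, 0 in a fit of the stages compared and 5 without E60 libraries 2 and 3. Leaving out each library in turn gave 58 to 10650 genes from E40 to E50, 4 to 11529 from E50 to E60 and 128 to 1181 from E40 to E60, and 0 to 4, 0 to 2 and 0 to 3 members.

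Correlations of deviations from the stage mean ran from -0.515 to 0.109 for libraries with the same replicate number, and from -0.378 to 0.423 for others. Whether the numbers pair the libraries cannot be told from these values, since at E60 the deviations carry the difference between library sets. With the number as a replicate block, 5104, 4 and 82 genes and 3, 0 and 0 members passed from E40 to E50, E50 to E60 and E40 to E60. A planned test of the recovered reads with limma-voom was run and then withdrawn, since the deposited values were FPKM and not counts. In that test KLF4 passed the limits from E50 to E60 and from E40 to E60, and directions turned for RUNX1, SP6 and SP7 from E50 to E60, RUNX3 from E40 to E50 and to E60 and the RUNX2 gene ID entry from E40 to E50. The share of all genes passing in it is not given here, and no result rests on it. In the shallow libraries RUNX1, RUNX3, SP7 and FOXO1 rested on few reads, which limits what can be seen of them.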
